A study of Mus musculus with 6 samples.

Results

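The genes S100a4, S100a6, S100a10, S100a11, Anxa1, Anxa2, Lgals1, Lgals3, Capg and Vim were followed in lymphocytes of the mouse mammary gland. They were chosen by symbol as a set often read as a mark of effector lymphocytes. All 10 were found among the 55450 genes of the table, and all 10 passed the filter on low counts, as 13171 genes did in all. Bulk RNA sequencing gave 6 libraries, 3 of CD8 beta+ T cells and 3 of double negative (DN) NK1.1+ lymphocytes, from glands of pregnant mice at E18.5 (embryonic day). The pair of markers that DN cells lack, and the strain, age and genotype of the mice, are not stated in the labels used here. DN cells are called lymphocytes in one label and T cells in another. The study asked if unconventional lymphocytes in the mammary epithelium act on epithelial and basal cell differentiation.

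S100 proteins are small calcium sensors that bind other proteins when calcium rises. Annexins bind phospholipid membranes in a calcium-dependent way, and annexin A2 forms a heterotetramer with S100A10. Galectins bind sugars on glycoproteins, Capg caps actin filaments and vimentin forms intermediate filaments. In CD8 T cells and natural killer (NK) cells, many of these transcripts are known to be more abundant after activation than in naive cells.

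Values are CPM, counts scaled to library size with TMM factors, and group values are mean ± SD (n = 3). A gene is said to rise or fall only where edgeR's quasi-likelihood test gave an adjusted p (Benjamini-Hochberg over all 13171 genes) under 0.05. Library totals ran from 7961360 to 14367299 counts, so that 1 count was worth 0.0721 to 0.130 CPM. The sort was visible in Cd8b1, the CD8 beta gene, at 890 to 1005 CPM in CD8 beta+ and 1.21 to 4.30 CPM in DN NK1.1+ libraries. Klrb1c, the NK1.1 gene, was at 30.7 to 41.7 and 616 to 658 CPM. Cd3e, of the T cell receptor complex, fell from 741 to 776 to 513 to 527 CPM (adjusted p = 4.55e-04). The NK receptor gene Ncr1 was at 0.288 to 0.649 and 252 to 293 CPM. Of 12 conventional T cell genes, Cd3e and Cd8b1 among them, 11 fell and 0 rose, beside 5.99% and 7.84% of all tested genes. Trac fell from 647.5 ± 52.4 to 240.9 ± 12.9 CPM and Bcl11b from 288.3 ± 14.9 to 53.2 ± 8.74 CPM. Of 12 NK and innate lymphoid cell genes, Klrb1c and Ncr1 among them, 10 rose and 0 fell. In bulk samples, fewer cells of a type and less RNA per cell cannot be told apart.

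Replicate 3 of each group stood apart in transcripts of other cell types. The summed level of 10 basal and myoepithelial genes was 22.3, 17.2 and 169 CPM in CD8 beta+ replicates 1 to 3, and 12, 27.0 and 225 CPM in the DN NK1.1+ ones. That of 10 fibroblast genes was 62.1, 28.8 and 260 CPM, against 90.1, 14.4 and 238 CPM. Results were therefore also computed from 4 libraries, without replicate 3 of either group, an alternative chosen after seeing the data.

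Promoters are shown for the annexin members, Anxa1 and Anxa2, both of which rose, and for S100a11, whose level per length of summed exons was the highest of the members. That length includes rare alternative exons of S100a6 and S100a10, so the rank depends on it. Each RefSeq window (GRCm38.p6) runs from 250 bases before to 50 after the annotated start, 5′ to 3′ in the direction of the gene. Capitals mark a TATA box (TATAAA), a GC box (GGGCGG) or an AP-1 motif (TGANTCA), searched on both strands. The windows are chr19:20390622-20390921 on the minus strand for Anxa1, chr9:69453433-69453732 on the plus strand for Anxa2 and chr3:93520246-93520545 on the plus strand for S100a11.
Anxa1: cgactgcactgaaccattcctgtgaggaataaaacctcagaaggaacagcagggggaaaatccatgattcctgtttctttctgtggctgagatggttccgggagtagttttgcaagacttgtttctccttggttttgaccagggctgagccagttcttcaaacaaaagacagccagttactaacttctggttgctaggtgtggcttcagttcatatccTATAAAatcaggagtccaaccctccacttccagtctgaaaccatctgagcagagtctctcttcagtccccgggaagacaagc
Anxa2: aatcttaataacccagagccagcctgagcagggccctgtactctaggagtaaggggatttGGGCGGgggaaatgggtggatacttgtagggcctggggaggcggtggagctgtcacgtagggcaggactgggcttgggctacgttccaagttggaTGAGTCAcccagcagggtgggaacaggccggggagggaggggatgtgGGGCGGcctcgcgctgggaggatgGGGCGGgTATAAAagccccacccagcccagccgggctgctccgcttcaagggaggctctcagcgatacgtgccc
S100a11: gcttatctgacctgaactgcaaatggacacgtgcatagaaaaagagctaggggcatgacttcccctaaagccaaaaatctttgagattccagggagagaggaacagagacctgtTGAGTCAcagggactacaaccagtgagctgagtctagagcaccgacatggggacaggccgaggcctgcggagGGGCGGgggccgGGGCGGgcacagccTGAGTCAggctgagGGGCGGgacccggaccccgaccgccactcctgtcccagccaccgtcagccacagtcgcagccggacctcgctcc
Windows were matched for 8 of the 10 genes, all but S100a10 and Lgals1. A TATA box was in 4 of the 8 windows (S100a4, Anxa1, Anxa2 and Vim) and in 13.6% of 32851 windows of that length in the RefSeq table. Its first letter lay at −32 in Anxa1 and Vim, −31 in S100a4 and −17 in Anxa2. A GC box was in 3 of 8 (S100a11, Anxa2 and Lgals3) against 35.7%. The AP-1 motif was in 2 of 8 (S100a11 and Anxa2) against 7.81%. A RUNX motif (TGTGGT) was in S100a6 alone, against 16.8%. The T-box motif AGGTGTGA and the ETS motif CCGGAAGT were in 0 of 8, against 1.28% and 3.89%. None of the marked motifs overlapped. Of the genes with a TATA box, Anxa1, Anxa2 and Vim rose and S100a4 was not called. Of those with a window but no TATA box, Lgals3 and Capg rose, and S100a6 and S100a11 were not called. Whether the motifs bear on the counts was not tested.

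Of the 10 genes, 5 rose in DN NK1.1+ libraries (Anxa1, Capg, Lgals3, Anxa2 and Vim) and 0 fell. At an unadjusted p under 0.05, S100a10 alone was lower. With DESeq2 and with limma-voom, 5 were higher and 0 lower as well. The same test called 13.8% of all tested genes, 7.84% as higher and 5.99% as lower, shares that also stand beside the lists below. The groups did not overlap in those 5 genes, against 30.6% of all tested genes. The median log2 fold change of the 10 was 0.41, beside −0.0033 over all tested genes. From the 4 libraries without either replicate 3, 7 were higher (S100a6 and S100a11 in addition) and 1 lower (S100a10).

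**Figure D1:**
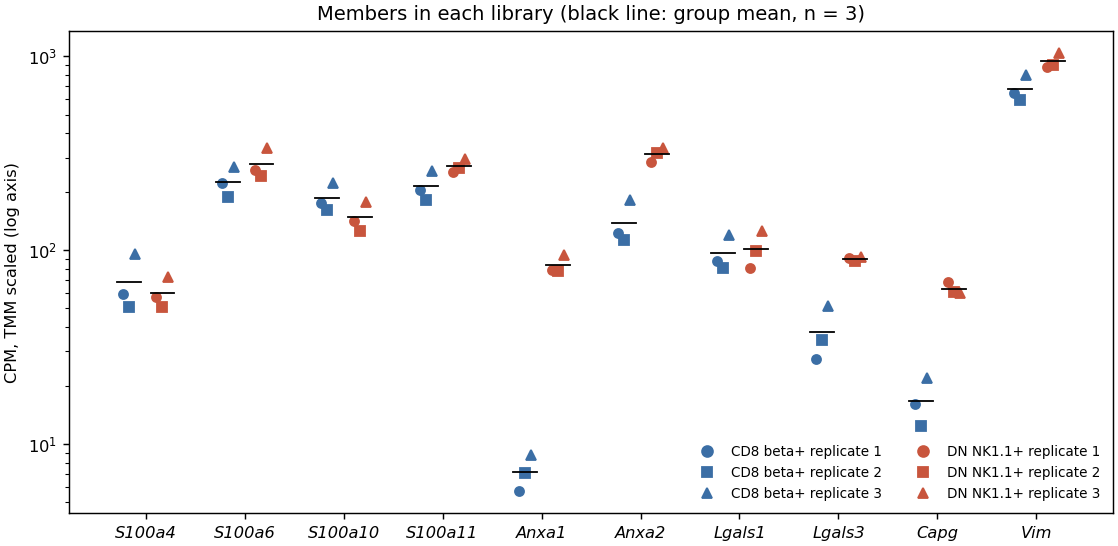
CPM of each of the 10 genes (log axis) in the 3 CD8 beta+ and 3 DN NK1.1+ libraries, with a black line at each group mean. Anxa1, Anxa2, Lgals3, Capg and Vim separate the groups, and the triangles of replicate 3 are the highest CD8 beta+ points for all 10 genes.

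Both annexin members rose, and Anxa1 had the largest fold of the 10 members. Anxa1 encodes annexin A1, a mediator known for limiting inflammation, and lies on chromosome 19 from 20373428 to 20390944 (mm10, minus strand). Its level was 5.71, 7.07 and 8.73 CPM in CD8 beta+ and 78.5, 78.3 and 94.5 CPM in DN NK1.1+ libraries. The lowest DN NK1.1+ library was 8.96 times the highest CD8 beta+ library. Anxa1 rose 11.6-fold (log2 fold change 3.54, SE 0.18, 95% interval 3.16 to 3.91, adjusted p = 2.16e-09). The size of its change was at the 98.8th percentile of all tested genes, and its log2 fold change stayed between 3.41 and 3.68 over the alternatives run.

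Anxa2, for annexin A2, lies on chromosome 9 from 69453620 to 69491795 (plus strand). It was at 122, 112 and 182 CPM in CD8 beta+ and at 283, 315 and 337 CPM in DN NK1.1+ libraries. The groups lay apart, with CD8 beta+ replicate 3 nearest to the other group. Anxa2 rose 2.25-fold (log2 fold change 1.17, SE 0.17, adjusted p = 0.00113), from 138 ± 37.6 to 312 ± 27.0 CPM.

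The 4 S100 members were abundant, and none of them was called. S100a4 and S100a6 lie together on chromosome 3, from 90603771 to 90606045 and from 90612882 to 90624181. S100a11 and S100a10 lie as a second pair on that chromosome, from 93520488 to 93526287 and from 93555080 to 93564643. All are on the plus strand.

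S100a10 encodes the partner of annexin A2. It was at 175, 161 and 222 CPM in CD8 beta+ and at 141, 126 and 176 CPM in DN NK1.1+ libraries. The ranges overlapped, and replicate 3 was the highest library of each group. The fold was 0.794 (95% interval 0.640 to 0.986, adjusted p = 0.169 in edgeR). The interval lies below equality, while the adjusted value does not pass. Without DN NK1.1+ replicate 3 the log2 fold change was −0.48 (adjusted p = 0.0315), and from the 4 libraries −0.33 (adjusted p = 0.0329).

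S100a11 was at 204, 181 and 257 CPM in CD8 beta+ and at 253, 266 and 296 CPM in DN NK1.1+ libraries. The lowest DN NK1.1+ value fell just under that of CD8 beta+ replicate 3. The fold was 1.27 (95% interval 1.06 to 1.52, adjusted p = 0.0817 in edgeR). Without CD8 beta+ replicate 3 the log2 fold change went from 0.34 to 0.49 (adjusted p = 0.00672), and from the 4 libraries it was 0.43 (adjusted p = 0.00261).

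S100a6 was at 221, 187 and 267 CPM in CD8 beta+ and at 259, 242 and 337 CPM in DN NK1.1+ libraries. Replicate 3 was again highest in each group and the ranges overlapped. The fold was 1.24 (95% interval 0.989 to 1.56, adjusted p = 0.229 in edgeR). The log2 fold change was 0.44 without CD8 beta+ replicate 3 (adjusted p = 0.0484) and 0.30 from the 4 libraries (adjusted p = 0.0410).

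S100a4 encodes a protein that binds non-muscle myosin and is linked to cell motility. It was at 59.3, 50.6 and 95 CPM in CD8 beta+ and at 57.2, 51.0 and 72.5 CPM in DN NK1.1+ libraries. Replicates 1 and 2 of the groups were nearly level, and replicate 3 was 1.73 and 1.34 times the mean of the other 2. The fold was 0.883 (95% interval 0.598 to 1.31, adjusted p = 0.735 in edgeR), an interval that leaves room for a change of more than 1.5-fold downward. Its log2 fold change turned from −0.18 to 0.13 without CD8 beta+ replicate 3.

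Of the 13 genes in the list of other S100 genes, which also holds S100pbp, 3 were tested and 1 rose. S100a1, known from heart and skeletal muscle, was at 0.908, 1.66 and 1.54 CPM in CD8 beta+ and at 12.5, 11.6 and 12.9 CPM in DN NK1.1+ libraries. It rose by 3.14 on the log2 scale (SE 0.35, adjusted p = 1.62e-05), from a low level. S100a13 was at 36.6 to 40.0 and 41.2 to 46.3 CPM (adjusted p = 0.365), and S100pbp, which codes for a binding partner of an S100 protein, was at 39.8 to 58.6 and 35.4 to 40.0 CPM (adjusted p = 0.275). S100a8 and S100a9, for the neutrophil protein calprotectin, stayed at or below 1.13 and 5.14 CPM in every library.

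The galectin members behaved unequally. Lgals3 encodes galectin-3, which can form multivalent lattices on glycoproteins, and lies on chromosome 14 from 47367751 to 47386160 (plus strand). It was at 27.4, 34.5 and 51.5 CPM in CD8 beta+ and at 91.0, 87.4 and 92.3 CPM in DN NK1.1+ libraries. The DN NK1.1+ values lay close together (SD 2.57 CPM) and the CD8 beta+ ones far apart (SD 12.4 CPM). Lgals3 rose 2.38-fold (log2 fold change 1.25, SE 0.19, adjusted p = 7.49e-04).

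Lgals1 encodes galectin-1, known for binding T cell surface glycans, and lies on chromosome 15 from 78926725 to 78930465 (plus strand). It was at 87.9, 81.1 and 119 CPM in CD8 beta+ and at 80.6, 98.6 and 126 CPM in DN NK1.1+ libraries. Those ranges cover each other almost wholly. The fold was 1.06 (95% interval 0.794 to 1.41, adjusted p = 0.849 in edgeR), and its sign turned without CD8 beta+ replicate 2 (log2 fold change −0.04) or DN NK1.1+ replicate 3 (−0.10).

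Of the other galectin genes, 4 were tested, of which 1 fell and 0 rose. Lgals9, for galectin-9, was at 125, 112 and 116 CPM in CD8 beta+ and at 89.2, 96.2 and 91.8 CPM in DN NK1.1+ libraries. It fell by 0.35 on the log2 scale (adjusted p = 0.0285). That call ended with scaling by library size only and without either of replicates 1 and 2 of each group (adjusted p up to 0.125).

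Of the other annexins, 6 were tested, of which 2 rose and 1 fell. Anxa6, the most abundant of them, was at 640, 548 and 721 CPM in CD8 beta+ and at 466, 458 and 498 CPM in DN NK1.1+ libraries. It fell by 0.42 on the log2 scale (adjusted p = 0.0140), the opposite direction to Anxa1 and Anxa2. Anxa4 rose by 0.98 (adjusted p = 0.0153) and Anxa11, which overlaps the antisense gene Anxa11os, by 0.35 (adjusted p = 0.0373) on that scale. These calls were less stable than those of Anxa1 and Anxa2, which held in each alternative run. That of Anxa6 ended without CD8 beta+ replicate 1 or DN NK1.1+ replicate 1 or 2 (adjusted p up to 0.0690). That of Anxa4 ended without CD8 beta+ replicate 1 or DN NK1.1+ replicate 3 and from the 4 libraries (up to 0.0914). That of Anxa11 ended with upper quartile scaling and without any one library but CD8 beta+ replicate 3 (up to 0.178). Anxa5, whose product is used to stain dying cells, was at 43.8 to 59.7 and 44.2 to 52.5 CPM (adjusted p = 0.654).

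**Figure D2:**
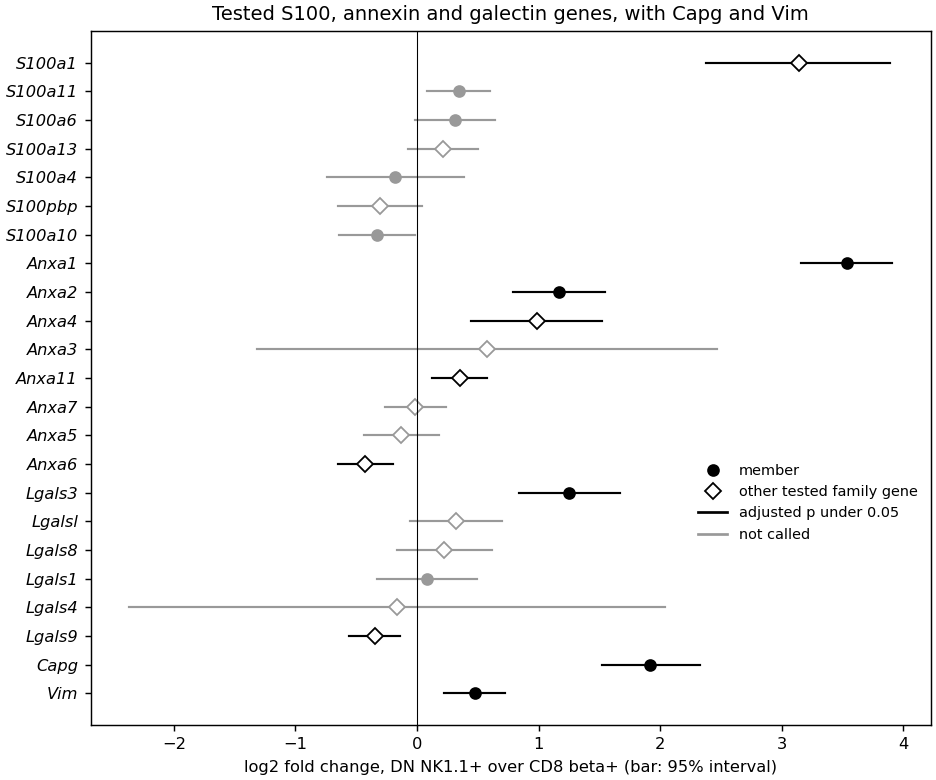
Log2 fold change of DN NK1.1+ over CD8 beta+ with its 95% interval for the tested S100, annexin and galectin genes, Capg and Vim. S100pbp, for a binding partner, is plotted with the S100 genes. Black marks genes with an adjusted p under 0.05, and each family holds genes on both sides of 0, from Anxa1 at 3.54 to Anxa6 at −0.42.

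The cytoskeletal members rose, by unequal amounts. Capg encodes a capping protein of the gelsolin family, which binds the barbed ends of actin filaments without cutting them, and lies on chromosome 6 from 72544391 to 72562983 (plus strand). It was at 16, 12.3 and 21.9 CPM in CD8 beta+ and at 68.5, 60.7 and 60 CPM in DN NK1.1+ libraries. The lowest DN NK1.1+ library was 2.74 times the highest CD8 beta+ library. Capg rose 3.79-fold (log2 fold change 1.92, SE 0.19, adjusted p = 4.94e-06). It was the one member that was not highest in DN NK1.1+ replicate 3.

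Vim encodes vimentin and lies on chromosome 2 from 13573927 to 13582826 (plus strand). It was at 642, 592 and 798 CPM in CD8 beta+ and at 884, 903 and 1037 CPM in DN NK1.1+ libraries. The groups lay apart by little, with the lowest DN NK1.1+ library at 1.11 times the highest CD8 beta+ one. Vim rose 1.39-fold (log2 fold change 0.47, SE 0.12, adjusted p = 0.0126). The call was lost when CD8 beta+ replicate 1 or replicate 2 was left out (adjusted p = 0.0881 and 0.101), and held from the 4 libraries (log2 fold change 0.54, adjusted p = 3.29e-05).

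Of 17 tested genes of actin capping, severing and monomer binding, 1 rose and 0 fell. That gene was Avil, for advillin of the gelsolin family, which rose from 0.437 ± 0.403 to 6.74 ± 3.36 CPM (log2 fold change 3.86, adjusted p = 0.00304). Its locus overlaps that of Tsfm on the other strand, and the use of strand in counting is not given. The barbed-end capping genes Capza1, Capza2 and Capzb had log2 fold changes of 0.09, 0.05 and 0.26 and were not called. Tmsb4x, for the actin monomer binder thymosin beta 4, was the most abundant of the list, at 5065 to 5802 and 5608 to 6397 CPM (adjusted p = 0.389). Gsn, for gelsolin, was at 25.2, 21.9 and 35.6 and at 28, 15.4 and 71.8 CPM (adjusted p = 0.741), with the highest value in the library richest in basal transcripts.

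Of 7 tested genes of intermediate filaments, lamins and their linkers, 1 rose and 1 fell. Lmna, for the A-type lamins, was at 3.37, 3.17 and 8.22 CPM in CD8 beta+ and at 15.7, 24.2 and 35.6 CPM in DN NK1.1+ libraries (log2 fold change 2.36, adjusted p = 0.00558). Lmnb1, for lamin B1, was at 106, 94.9 and 140 CPM and at 62.8, 73.3 and 85.8 CPM (log2 fold change −0.62, adjusted p = 0.0159). Lmnb2, for lamin B2, was at 4.54, 7.21 and 5.45 CPM and at 10.6, 11.5 and 9.99 CPM, without overlap, and was not called (log2 fold change 0.89, adjusted p = 0.0567). The Lmnb1 call ended without DN NK1.1+ replicate 1 or 2 (adjusted p up to 0.0744). Macf1, a linker of actin and microtubules and the most abundant of the list, was at 997 to 1308 and 999 to 1484 CPM (adjusted p = 0.749).

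Levels of different members can be compared only per length, here CPM per kilobase of summed exons in GENCODE M21. Summed exons include rare alternative exons and so understate genes such as S100a6 and S100a10. S100a11 was highest in each group, at 419 and 532 CPM per kilobase, and its libraries did not overlap those of the next gene. In CD8 beta+ libraries S100a6, S100a10, Vim, S100a4 and Lgals1 followed, from 165 down to 106, and the range of each overlapped that of its neighbour. Anxa2 (37.1), Lgals3 (20.3), Capg (6.60) and Anxa1 (2.46) came last, each apart from its neighbours. In DN NK1.1+ libraries the order kept Anxa2 (83.6) and Lgals3 (48.6) in the seventh and eighth place, and Anxa1 (28.8) and Capg (24.9) overlapped at the end. Among all tested genes, Anxa1 went from the 37.6th to the 89.6th percentile of this level and Capg from the 61.4th to the 87.7th. The S100 genes lay between the 97.2th and the 99.3th percentile in each group.

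The ratio of Anxa2 to S100a10, the genes of the annexin A2 tetramer, is free of the scaling between libraries. Per kilobase, CD8 beta+ replicates 1 to 3 had ratios of 0.226, 0.226 and 0.266, and the DN NK1.1+ replicates 0.653, 0.814 and 0.622. The mean went from 0.239 ± 0.0230 to 0.696 ± 0.103, a ratio 2.91 times as high. Without division by length the means were 0.736 and 2.14, with the same fold of 2.91. Which of the genes is the higher one thus depends on the exon lengths used, and the fold does not. The Lgals1 to Lgals3 ratio went the other way, from 6.61, 4.83 and 4.77 to 1.82, 2.32 and 2.80. The groups did not overlap for either ratio, and an exact two-sided permutation test gave p = 0.1 for each (also 0.1 adjusted over both), the smallest that 3 against 3 libraries allow. The Anxa2 to S100a10 fold was 2.66 to 3.08 without any one library and 3.25 from the 4 libraries.

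**Figure D3:**
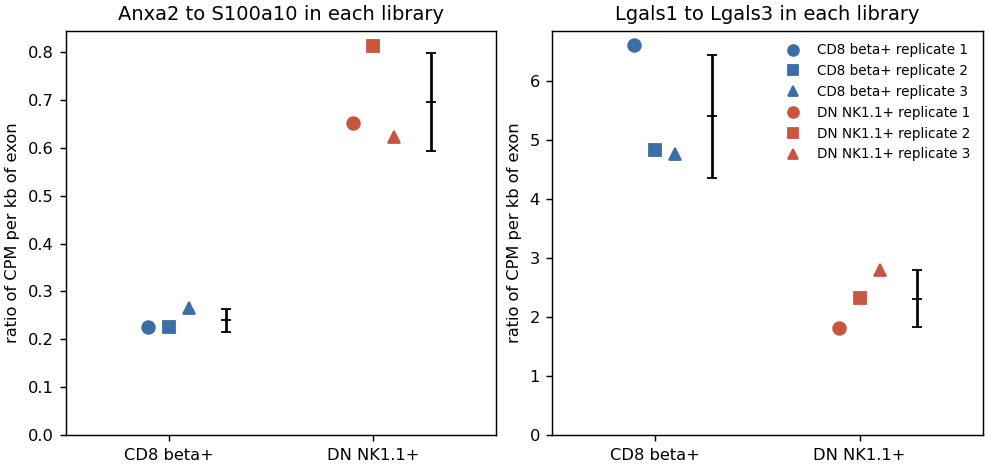
Ratio of CPM per kilobase of exon for Anxa2 to S100a10 (left) and Lgals1 to Lgals3 (right) in each library, with mean and SD (bars, n = 3). The CD8 beta+ libraries lie between 0.226 and 0.266 on the left, below all DN NK1.1+ libraries, and above them on the right.

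Replicate 3 was the highest library of its group for most members. CD8 beta+ replicate 3 was the highest library of its group for 10 of 10 members, beside 38.0% of all tested genes. DN NK1.1+ replicate 3 was highest for 9 of 10, beside 36.4%, and lowest for Capg. The lowest DN NK1.1+ library was replicate 1 for 4 members and replicate 2 for 5, so that the members shared no order below replicate 3. The summed level of the members was 1560, 1420 and 2022 CPM in CD8 beta+ libraries, against 2195, 2227 and 2628 CPM. Relative to the mean of its 2 partners, CD8 beta+ replicate 3 was 1.29-fold (Vim) to 1.73-fold (S100a4) higher. DN NK1.1+ replicate 3 was between 0.929-fold (Capg) and 1.40-fold (Lgals1). Basal and fibroblast transcripts were most abundant in these same libraries, and their part in the members' levels there was not tested. The summed level of 12 naive lymphocyte genes was 2418, 2415 and 1110 CPM in CD8 beta+ replicates 1 to 3, against 1195, 1181 and 1063 CPM in DN NK1.1+ libraries. CD8 beta+ replicate 3 was thus also the library of its group with the least naive transcripts, and the part of this too was not tested.

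**Figure D4:**
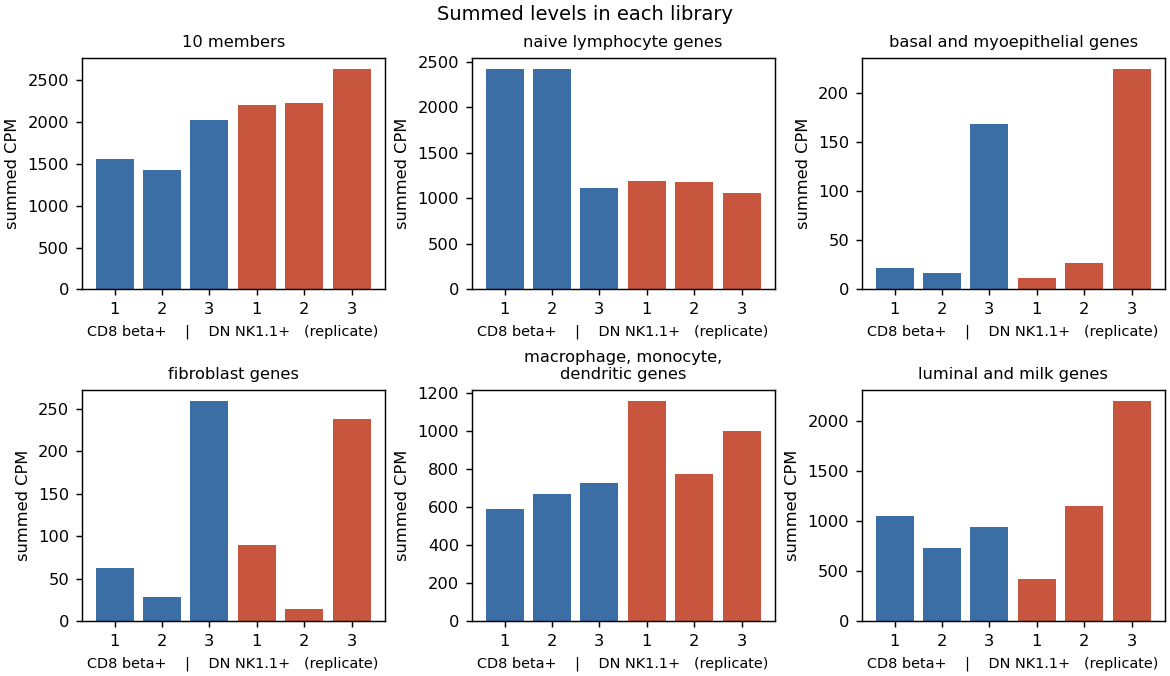
Summed CPM of the 10 members and of 5 lists of other genes in each library (blue, CD8 beta+; red, DN NK1.1+; numbers are replicates). Replicate 3 has the highest member sum in each group (2022 and 2628 CPM), together with the highest basal and fibroblast sums.

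Transcripts of other cell types were compared beside the members. Myeloid cells are known to express several members strongly. The summed level of 16 macrophage, monocyte and dendritic genes was 593, 673 and 730 CPM in CD8 beta+ libraries, against 1161, 776 and 1004 CPM. Among the 15 of them that were tested, 2 rose and 0 fell, beside 7.84% and 5.99% of all tested genes. They were Itgax, which NK cells are known to express too, and the macrophage gene Csf1r, from 12.7 to 19.6 up to 21.3 to 38.6 CPM. Adgre1, C1qa and Flt3, the other defining markers of this list, were not called. Their log2 fold changes were 0.24, 0.78 and 1.83 (adjusted p = 0.818, 0.316 and 0.202). Without Itgax the sums were 491, 567 and 600 and then 904, 497 and 737 CPM, which overlapped. DN NK1.1+ replicate 2, at 497 CPM within the CD8 beta+ range, had 78.3 CPM of Anxa1, 315 of Anxa2, 87.4 of Lgals3, 60.7 of Capg and 903 of Vim. Its Csf1r level, 21.3 CPM, was above that of each CD8 beta+ library. Its fibroblast sum of 14.4 CPM was the lowest of all 6 libraries, and its luminal and milk sum of 1145 CPM was above the CD8 beta+ range. Of the defining markers of the 8 lists of other cell types, Adipoq and Plin1 of adipocytes had 0 counts in both groups and Ly6g of neutrophils had 0 in CD8 beta+ libraries. The range of the summed level over CD8 beta+ and then DN NK1.1+ libraries was 1.80 to 10.8 and 2.68 to 7.80 CPM for neutrophil genes, and 177 to 265 and 275 to 322 CPM for B cell genes. It was 34.9 to 47.9 and 48.2 to 85.2 CPM for endothelial genes, and 75.8 to 109 and 95.5 to 145 CPM for adipocyte genes. For luminal and milk genes it was 732 to 1050 and 426 to 2198 CPM. Single markers rose together with the members, while most tested genes of their lists were not called. Epcam, a defining luminal marker, was at 7.39, 6.70 and 4.01 CPM in CD8 beta+ libraries and at 30.7, 32.7 and 32.2 CPM in the others (log2 fold change 2.40, adjusted p = 4.04e-06). Pecam1, a defining endothelial marker, was at 34.8, 37.8 and 22.6 CPM and then at 63.4, 47.8 and 65.0 CPM (log2 fold change 0.89, adjusted p = 0.00566). Of the other defining markers, Csn2, Csn3, Krt8 and Krt18 of luminal cells were not called (adjusted p from 0.555 to 0.959). Nor were Cdh5 and Kdr of endothelial cells (adjusted p = 0.806 and 0.922). Adipor2 of the adipocyte list and Ighm of the B cell list rose as well, by 0.36 and 0.55 on the log2 scale (adjusted p = 0.0356 and 0.00604), while Cd79b of B cells fell by 1.32 (adjusted p = 0.0180). The part of myeloid, fibroblast, luminal, endothelial and other cells in the rise of the members was not tested.

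Of 9 tested partners of the S100 proteins and annexins, 2 rose and 0 fell, beside 7.84% and 5.99% of all tested genes. Ahnak, for a giant scaffold protein that binds the annexin A2 and S100A10 complex, was at 2833, 3037 and 3613 CPM in CD8 beta+ and at 5194, 4296 and 3901 CPM in DN NK1.1+ libraries. It rose 1.41-fold (log2 fold change 0.50, adjusted p = 0.0165). The call ended without any one of replicates 1 and 2 of either group (adjusted p up to 0.136). Tlr4, for a receptor that S100A8 and S100A9 can engage, rose from 0.929 ± 0.498 to 6.10 ± 2.35 CPM (log2 fold change 2.66, adjusted p = 0.00429). Myh9, for the myosin that S100A4 binds, was at 2880 to 2959 and 3034 to 3271 CPM (adjusted p = 0.514). Fpr1 and Fpr2, for receptors of annexin A1, were not above 1.12 and 0.172 CPM in any library.

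Genes of galectin ligands and of the glycans they bind held opposed changes. Of 13 tested, 4 were higher and 2 lower, beside 7.84% and 5.99% of all tested genes. Cd7, for a galectin-1 ligand of T and NK cells, was at 274, 251 and 360 CPM in CD8 beta+ and at 1182, 1178 and 1123 CPM in DN NK1.1+ libraries (log2 fold change 1.98, adjusted p = 3.96e-08). Gcnt1, for an enzyme that branches O-glycans, rose from 3.79 ± 2.03 to 32.5 ± 1.59 CPM (log2 fold change 3.05, adjusted p = 4.77e-06). Mgat5, for an enzyme that branches N-glycans and so builds galectin-3 ligands, rose from 53.0 ± 10.6 to 141 ± 2.12 CPM (adjusted p = 2.13e-06). Its locus overlaps other genes, Tmem163 among them. Lgals3bp, for a secreted galectin-3 binding protein, rose from 144 ± 10.2 to 221 ± 19.9 CPM (adjusted p = 5.40e-04). These 4 calls held in each alternative run.

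The sialyltransferase genes moved down. St6gal1, whose product caps glycans against galectin-1, was at 46.4, 47.9 and 14 CPM in CD8 beta+ and at 7.74, 8.86 and 6.21 CPM in DN NK1.1+ libraries. It fell by 2.25 on the log2 scale (adjusted p = 0.0224), with CD8 beta+ replicate 3 between the groups. Its locus overlaps the processed transcript BC106179 on the other strand. The call ended without CD8 beta+ replicate 1 or any DN NK1.1+ library (adjusted p up to 0.130). St3gal1 fell by 0.46 (adjusted p = 0.0225), a call that ended without CD8 beta+ replicate 1 or 2 or DN NK1.1+ replicate 1 (adjusted p up to 0.102). Ptprc, for the abundant galectin ligand CD45, was at 2359 to 2511 and 2312 to 2750 CPM (adjusted p = 0.780).

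Among other effector and memory genes, more fell than rose. Of 17 tested, 1 rose, 6 fell and 10 were not called. Of all tested genes, 7.84% rose and 5.99% fell. The median log2 fold change of the list was −0.24. Ly6c2, for a surface protein of memory CD8 T cells, fell from 549 ± 104 to 180 ± 11.5 CPM (adjusted p = 4.31e-07). Cx3cr1, for a chemokine receptor of effector cells, fell from 30.7 ± 11.3 to 10.7 ± 0.368 CPM (adjusted p = 4.28e-04), at a locus that overlaps Wdr48 and Csrnp1. Zeb2, for a transcription factor of terminal effector cells, rose from 56.6 ± 13.4 to 88.8 ± 4.62 CPM (adjusted p = 0.00729), a call that ended without CD8 beta+ replicate 2 or 1 (adjusted p up to 0.0511). Crip1, Emp3 and Tagln2, often seen beside S100 genes in memory cells, had log2 fold changes of −0.24, −0.47 and 0.24 and were not called. Ccl5, a chemokine gene and the most abundant of the list, was at 1974 to 2469 and 1732 to 1872 CPM (adjusted p = 0.0709).

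Of 12 naive lymphocyte genes, 7 fell and 0 rose, beside 5.99% and 7.84% of all tested genes. Their median log2 fold change was −1.33. Dapl1 fell by 4.93 (adjusted p = 0.00215) on the log2 scale. Ccr7 encodes a chemokine receptor that guides cells to lymph nodes and fell by 4.05 (adjusted p = 0.0153). The Ccr7 call ended without any one DN NK1.1+ library (adjusted p up to 0.0916). Satb1, for a chromatin organiser and the most abundant of the list, was at 469, 539 and 219 and at 382, 384 and 334 CPM (adjusted p = 0.857). Over all 9 lists, 12 of 88 tested genes rose and 18 fell, beside 7.84% and 5.99% of all tested genes.

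**Figure D5:**
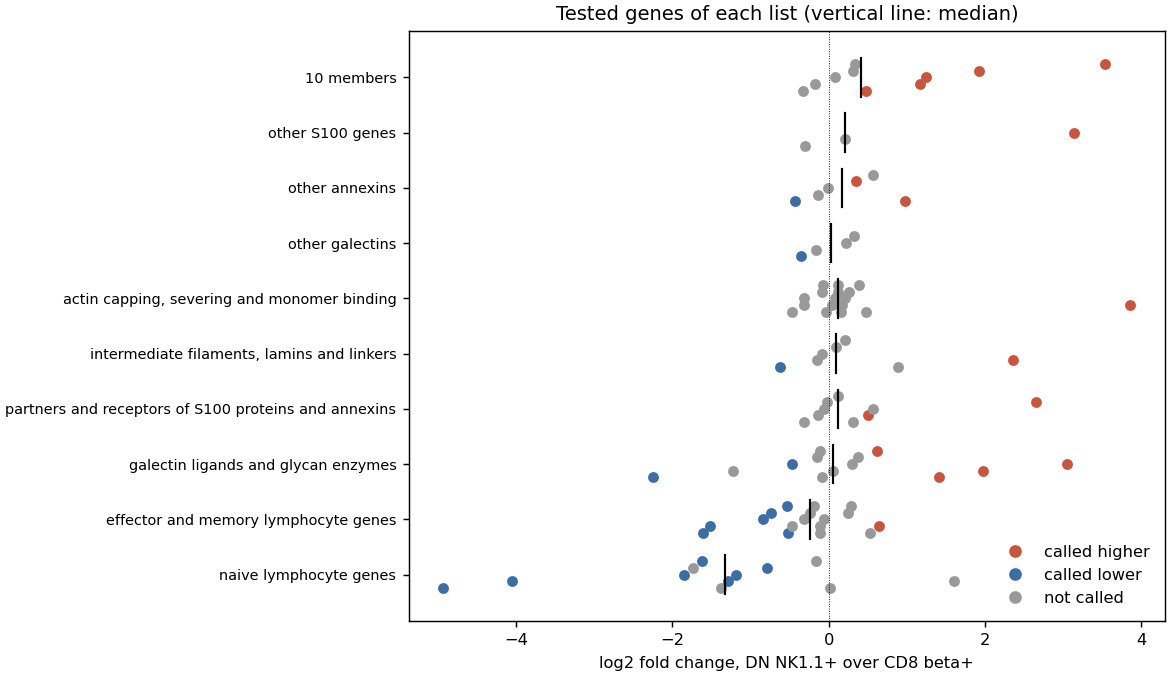
Log2 fold change of DN NK1.1+ over CD8 beta+ for each tested gene of the 10 members and 9 further lists, with a vertical line at the median. The members' median is 0.41, that of effector and memory genes −0.24 and that of naive genes −1.33.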

How the data were processed

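Bulk RNA sequencing of 6 libraries was analysed. The table deposited by the authors holds estimated counts per gene, a unit inferred from its values (at most 2 decimals, totals that differ between libraries). They were rounded to whole numbers. The build mm10 and Cell Ranger 7.1.0, a single-cell tool, are listed per the submitters' processing notes. For aligner, counting tool and strand setting, the labels used here name nothing. All 55450 gene IDs matched GENCODE M21.

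Genes passed edgeR's filter (minimum count 10, minimum total 15). Counts were tested in edgeR 4.0.16 (R 4.3.3) with TMM, a robust quasi-likelihood fit and group alone, with a threshold of 0.05. On simulated data the fit made 113 calls, of which 4.4% were false. It recovered 28.6% of 1.5-fold, 54.1% of 2-fold and 83.3% of 4-fold changes. A gene that was not called may thus still differ by such amounts. These shares are over all 13171 genes, not at the members' own counts. For the 5 members not called, the 95% intervals of the fold reached down to 0.598 (S100a4) and up to 1.56 (S100a6). SE and 95% intervals come from the F statistic. No label says that the libraries are from different animals. The p-values therefore reflect only how far these libraries spread, which could be technical.

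Alternatives were other scalings and filters, DESeq2 1.42.0, limma-voom 3.58.1, a fit without robust, a replicate block and leaving out libraries. Members and lists were chosen with earlier results of these data known. By rule, the text names all members, the most abundant gene of each list, and the 2 genes per list that changed most among those called and reaching 5 CPM. Further genes were picked after their values were seen. Transcripts at least 95% identical over 100 bases existed for S100a4 (1 gene) and S100a11 (2 genes), whose counts came to at most 0.854% of the member's.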

Additional observations from a re-analysis of the deposited data

How the results depend on the processing

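The rises of Anxa1, Anxa2, Lgals3 and Capg held in each alternative run. Between 4 and 7 members were higher and 0 or 1 lower when 1 library was left out. S100a6 and S100a11 joined the higher ones, and S100a10 was the 1 called lower, without the filter on low counts, with the replicate block and from the 4 libraries, each giving 7 higher and 1 lower. Leaving out 1 library moved the log2 fold change of S100a4 between −0.364 and 0.127, the latter without CD8 beta+ replicate 3. That of Lgals1 moved between −0.10 (without DN NK1.1+ replicate 3) and 0.258, and was −0.0356 without CD8 beta+ replicate 2. The cause was not tested. Over all genes, 681 to 1093 were higher and 499 to 883 lower without 1 library (main counts 1033 and 789), with the lowest counts without CD8 beta+ replicate 1. In the 9 pathway lists, 8 to 14 genes were higher and 11 to 20 lower, with 11 lower without DN NK1.1+ replicate 1 or 2. The Anxa2 to S100a10 ratio in DN NK1.1+ over CD8 beta+ ran from 2.66 to 3.08 and that of Lgals1 to Lgals3 from 0.383 to 0.482.

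Replicate numbers are shared between groups, but no label says that they pair libraries. Deviations from group means correlated at −0.05, 0.189 and 0.256 for same-numbered libraries, and replicate 1 of CD8 beta+ correlated best with replicate 2 of DN NK1.1+. With the replicate block, 1137 genes were higher and 945 lower. The 95% interval of the fold of S100a4 (0.598 to 1.31) and of Lgals1 (0.794 to 1.41) shows the size of change that these libraries cannot tell from none.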
